A study of Homo sapiens with 2 samples.

Results

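The long known models are the rows of the deposited transcript table that TALON, the authors' long-read annotation program, marked as known, that are at least 4000 bases long, that have at least 2 exons and that have at least 1 read in either library. There were 2430 of them among 237608 transcript models (1.02%) and among 23533 known models (10.3%), and they belonged to 2175 genes. The RNA came from GM12878, a human B-lymphoblastoid line immortalised by Epstein-Barr virus, for which the labels give no treatment, and was read as native strands on nanopores (direct RNA sequencing, with no PCR) in 2 replicate libraries of 1 group. Replicate 1 held 1360368 reads and replicate 2 held 1510998, so that 1 read was worth 0.735 and 0.662 CPM (counts scaled to the library total in the usual way). Nothing in the labels says whether the libraries came from separate cultures, so p-values measure only the difference between these libraries, which may be technical.

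The 7 B cell markers looked for were read in both libraries, from PAX5, a B lineage transcription factor, at 39.7 and 46.3 CPM to CD74, the MHC class II invariant chain, at 7766 and 8088 CPM. Of the markers of other lineages, LYZ, GATA1, ALB and EPCAM had 0 reads, CD14 had 2 and 2, COL1A1 2 and 3, and CD3E 5 and 16.

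Splicing joins exons at junctions, and a long read can show every junction of its RNA at once. In direct RNA sequencing the strand enters the pore from its poly(A) tail, so a read that stops early lacks the 5′ end and the junctions near it. In TALON's usage a known model carries the complete junction chain of an annotated transcript, and a read with part of the chain becomes an incomplete splice match (ISM), of the suffix kind when the 3′ end is kept and of the prefix kind when the 5′ end is kept. The length in the table is that of the annotated transcript, not of the read: all 23533 known models matched GENCODE release 29 (GRCh38) in exon number and length. The working name of these rows, long models read in full, could therefore be checked for junctions and not for ends. A read can hold every junction of a model and still miss most of a long first or last exon. For each model the bases between its first and last junction were therefore added up from the annotation. This junction span, the model length without the outer exons, is the least that a read has to cover to carry the whole chain.

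The sequences of 2 short chains show how small this stretch can be. RPL37-201 encodes a protein of the large ribosomal subunit, lies at chr5:40825262-40835335 on the minus strand and is 7686 bases long in 4 exons, of which the last takes 7312 bases. SNRPD1-201 encodes an Sm protein of the spliceosome core, lies at chr18:21612267-21633524 on the plus strand and is 4909 bases long in 4 exons, with 4463 in the last. Each line gives the spliced transcript (GENCODE release 29, GRCh38) from 2 bases before the first junction to 2 bases after the last one, with the 2 bases on either side of every junction in capitals. The letters fall within chr5:40832572-40835184 and chr18:21612442-21629063, with introns removed, and all are coding.
RPL37-201: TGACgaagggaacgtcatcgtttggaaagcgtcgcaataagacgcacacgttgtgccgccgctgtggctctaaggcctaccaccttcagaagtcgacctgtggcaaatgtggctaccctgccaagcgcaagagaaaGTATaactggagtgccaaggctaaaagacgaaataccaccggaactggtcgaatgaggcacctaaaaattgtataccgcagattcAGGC
SNRPD1-201: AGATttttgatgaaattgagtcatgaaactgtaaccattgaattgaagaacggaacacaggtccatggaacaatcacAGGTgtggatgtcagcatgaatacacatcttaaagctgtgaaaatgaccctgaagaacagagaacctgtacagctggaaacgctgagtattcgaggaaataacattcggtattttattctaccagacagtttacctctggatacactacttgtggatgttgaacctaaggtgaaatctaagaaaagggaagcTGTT
These 225 and 273 bases contain all 3 junctions of each model, against lengths of 7686 and 4909 bases.

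At the other end stand models whose coding exons fill nearly the whole chain. In such a model the first and last junctions lie far apart, and a read must hold both windows printed here, 30 bases each, with the 2 bases on either side of the junction in capitals. FASN is fatty acid synthase, FLNA the actin crosslinker filamin A, PRPF8 a core protein of the spliceosome, VARS the valyl-tRNA synthetase and SMAD2 a signal transducer of the TGF-beta pathway. All 5 lie on the minus strand, and the windows are within FASN chr17:82096438-82098135 and chr17:82079266-82079371, FLNA chrX:154368076-154370887 and chrX:154349022-154349376, PRPF8 chr17:1684568-1684794 and chr17:1650942-1651122, VARS chr6:31795236-31795560 and chr6:31777648-31778981, and SMAD2 chr18:47896795-47930375 and chr18:47841936-47845354, introns included.
FASN-201 first: ccgcgccctcaccAGAGcagccatggagga
FASN-201 last: tacaacctctcccAGGTatgcgacgggaaa
FLNA-201 first: aactggtgtccatCGACagcaaggccatcg
FLNA-201 last: actgcagcaaagcAGGCaacaacatgctgc
PRPF8-201 first: gtgagggcctgtgGGATtctccggatatgg
PRPF8-201 last: actacaacttcatGGGTgttcggcatgacc
VARS-215 first: gaccatctccctcCAGTttttccacttcgt
VARS-215 last: gcagatgaagccaAGCTccaacagacagaa
SMAD2-201 first: ggcgccaccttgcAGGTtcgatacaagagg
SMAD2-201 last: gggagcagaatacCGAAggcagacggtaac
The junction span was 7405 bases in FASN-201, 7359 in FLNA-201, 6864 in PRPF8-201 and 3759 in VARS-215. SMAD2-201 is the longest long known model, at 34526 bases, but its span was 1333 bases because its last exon alone is 32994 bases long.

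Most long known models were long because of an outer exon. Their length had a median of 5146 bases and a range from 4002 to 34526, and their exon number a median of 10 and a range from 2 to 67. The last exon had a median of 3377 bases and made up a median of 67.2% of the model, against 41.9% in the 18551 known models with 2 or more exons under 4000 bases, called shorter known models from here on. The last exon exceeded 50% of the length in 1661 of the 2430 models, and the first exon did so in 126. The junction span had a median of 1226.5 bases and a range from 0 to 9505. It was under 1000 bases in 1016 models (41.8%), at least 2000 in 726 and at least 4000 in 136 (5.60%). Of the 2430 models, 2262 have an annotated coding sequence, with a median of 1701 bases. In the 2254 of them annotated as protein coding, the part after the stop codon took up a median of 62.5% of the length. In the 12002 shorter known models of that type it took up 28.5%.

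**Figure D1:**
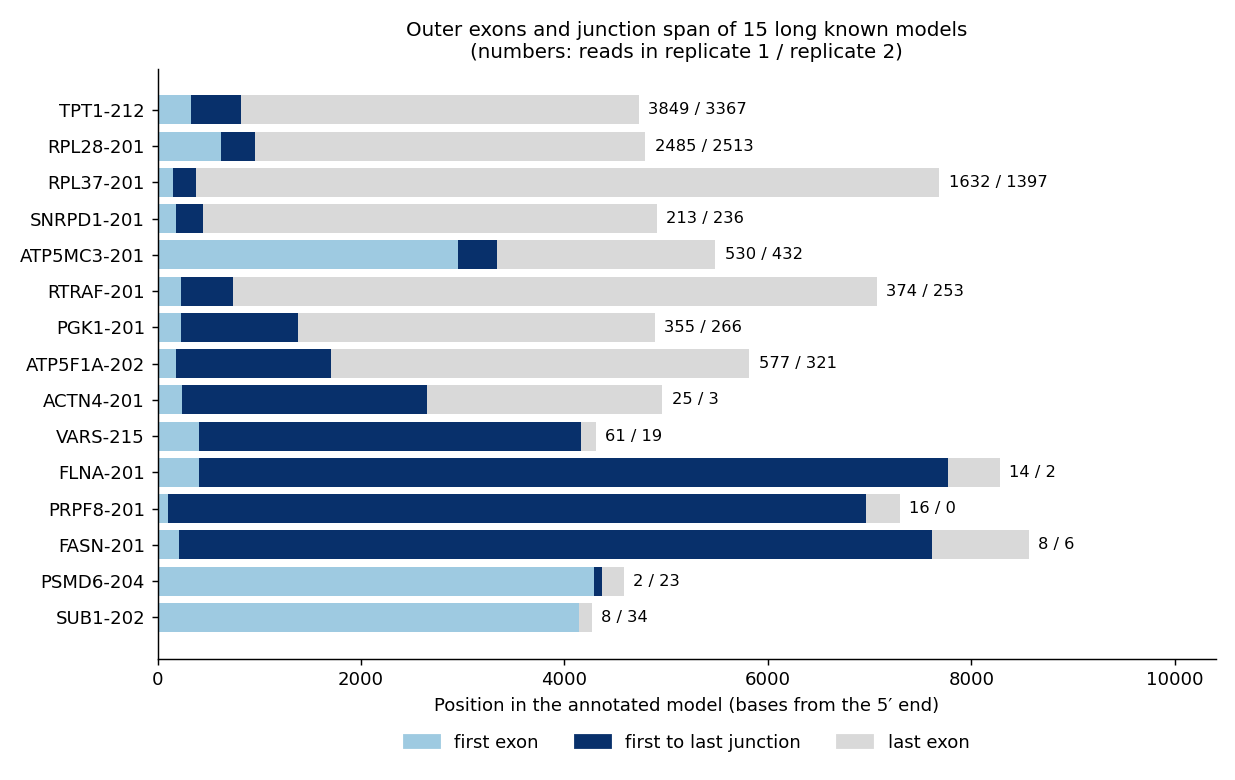
First exon, junction span and last exon of 15 long known models, drawn to scale in bases from the 5′ end, with the reads in replicates 1 and 2 beside each bar. The span fills most of the bar in FASN-201 (7405 bases) and FLNA-201 (7359), and a small piece of it in RPL37-201 (221) and PSMD6-204 (78).

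By gene type, 2401 of the 2430 models belonged to protein-coding genes. By transcript type, 2254 were annotated as protein coding, 124 as retained intron (an annotated transcript that keeps intron sequence) and 52 as other types. Of all 2175 genes, 1952 had 1 long known model, 197 had 2 and 26 had 3 or more, so some models share a gene and much of their sequence. TUG1, a long noncoding RNA gene, had the most, with 5. No other annotated transcript had the same junctions in 2341 models, and in 89 at least 1 did.

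Long known models took 36278 reads of replicate 1, or 2.67% (95% Wilson interval 2.64 to 2.69%), and 25693 reads of replicate 2, or 1.70% (1.68 to 1.72%). The mean was 2.18% ± 0.683 (SD, n = 2). Replicate 2 was the deeper library and held fewer of these reads. Scaled to CPM, the ratio of replicate 2 to replicate 1 was 0.638 (95% interval 0.627 to 0.648), and for shorter known models it was 0.800 (0.797 to 0.803). Intervals in the text cover counting error only. Without the 10 models with most reads the ratio was 0.528.

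The reads were unevenly spread over the models. A single read supported 733 models, 2 to 4 reads supported 682, 67 had 100 or more but under 1000 in both libraries together, and 6 had 1000 or more. Those 6 models held 33.8% and 43.9% of the reads of all long known models, and the 10 most read held 39.2% and 49.7%. The 10 models of ribosomal protein genes held 16.9% and 22.9%. Models with a span under 1000 bases took 68.7% and 77.7% of the reads, and those with a span of at least 2000 took 8.57% and 2.87%. Weighted by reads, the mean length was 5588 bases in replicate 1 and 5508 in replicate 2, and the mean junction span was 880 and 653 bases.

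A read in both libraries was found for 1261 of the 2430 models, or 51.9% (Wilson interval 49.9 to 53.9%), while 925 had reads only in replicate 1 and 244 only in replicate 2. The share was 58.7% in shorter known models. Across the 2430 models the log2(CPM + 1) values of the libraries had a Pearson's r of 0.822 and a Spearman's rho of 0.601, as a description across models that share the same 2 libraries. Among the 1016 models with a span under 1000 bases r was 0.885 and rho 0.742, and among the 726 with a span of at least 2000 bases r was 0.581 and rho 0.379. Models with a single read made up 39.1% of those 726 and 30.2% of all 2430, so span and read level were not separated here.

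**Figure D2:**
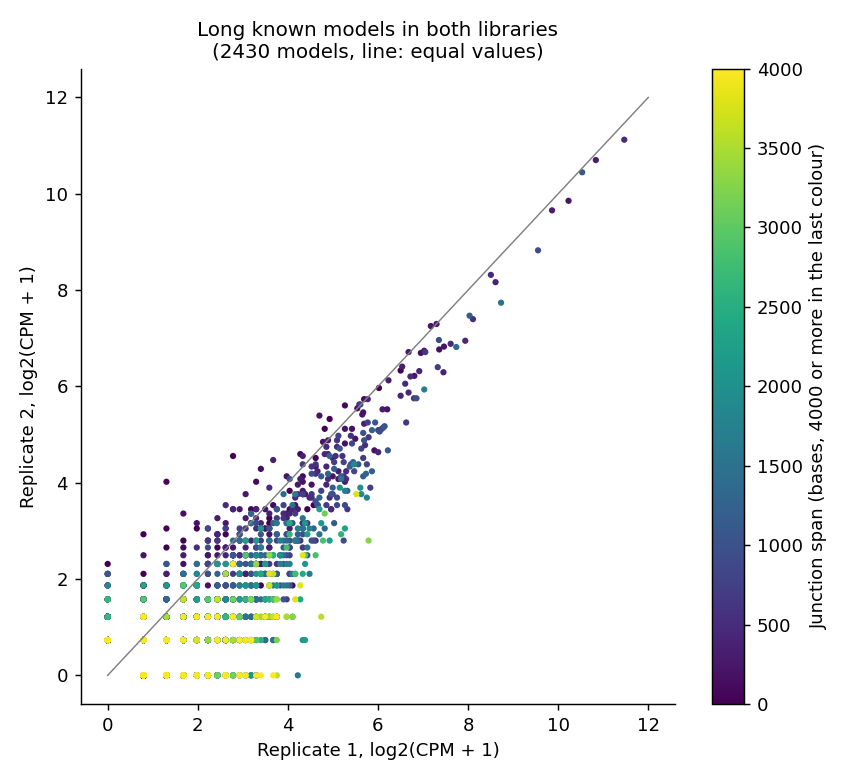
Level of each of the 2430 long known models in replicate 1 (horizontal) and replicate 2 (vertical) as log2(CPM + 1), coloured by junction span in bases, with a line of equal values. The models of highest level lie near the line and have short spans, and the models of long span lie at low levels, mostly below the line.

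The 12 most read long known models had spans from 221 to 1520 bases. TPT1-212, of the translationally controlled tumour protein (chr13:45333471-45341370, minus strand), is 4735 bases long with a span of 488 and had 3849 reads (2829 CPM) in replicate 1 and 3367 (2228 CPM) in replicate 2. RPL28-201, of a large ribosomal subunit protein (chr19:55385345-55392085, plus strand), is 4796 bases long with a span of 332 and had 2485 and 2513 reads. EEF1A1-202, of the elongation factor that brings aminoacyl-tRNAs to the ribosome, is 4441 bases long with a span of 1120 and had 2013 and 2106 reads. RPL28-201 and EEF1A1-202 had slightly more reads in replicate 2, the deeper library, and TPT1-212 had more in replicate 1. Genes of ribosomal proteins and EEF1A1 have near-identical pseudogene copies. The reads counted for these models carry the complete junction chain of the model. The gene totals used below also hold reads without it, and which copy those came from is uncertain.

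Other ribosomal protein models had the same build, a short chain ahead of a long last exon. RPL37-201, whose chain is printed above, had 1632 and 1397 reads, RPL27A-201 1266 and 1217, and RPL13-201 493 and 480. RPS29-202, named after its values were seen, is 7062 bases long with a span of 100 and had 51 and 72 reads, which was 1.29% and 1.43% of the reads of its gene. The long model was thus the main one for some ribosomal protein genes and a small fraction for others: RPL28-201 held 56.5% (Wilson interval 55.1 to 58.0%) and 48.2% (46.8 to 49.5%) of the reads of RPL28, and RPL13-201 6.66% and 5.69% of those of RPL13.

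Among the other most read models, HNRNPA1-203, of a protein that binds nascent transcripts, had 1020 and 684 reads. ATP5F1A-202, of the alpha subunit of mitochondrial ATP synthase, had 577 and 321, and ATP5MC3-201, of the membrane ring of the same enzyme, had 530 and 432. PGK1-201, of the glycolytic phosphoglycerate kinase, had 355 and 266 reads, RTRAF-201, of an RNA-binding protein, 374 and 253, and SNRPD1-201 213 and 236. ATP5MC3-201 differs in build, because its first exon of 2952 bases is longer than its last of 2145, with a span of 387. SNRPD1-201 was at 157 and 156 CPM, while ATP5F1A-202, with a span of 1520 bases, was at 424 CPM in replicate 1 and 212 in replicate 2.

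Because the counts rest on junctions, it was also asked what the annotated last exons hold. Cleavage and polyadenylation usually follow the hexamer AATAAA, and a transcript that ends early in the last exon keeps all its junctions. The first AATAAA began 23 bases after the stop codon in RPL37-201 (of 7242 bases to the model's end), 77 in SNRPD1-201 (of 4386) and 189 in TPT1-212 (of 3915). The 30 bases around each, with the hexamer in capitals, lie at chr5:40832464-40832493 (minus), chr18:21629203-21629232 (plus) and chr13:45337180-45337209 (minus).
RPL37-201 hexamer: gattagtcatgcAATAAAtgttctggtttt
SNRPD1-201 hexamer: atgtcagtttttAATAAAcataaatgtggg
TPT1-212 hexamer: aggttgtctaaaAATAAAatgcatttaaac
The motif began 19 bases after the stop codon in RPL28-201 and 4 in C12orf45-204, but 2957 in RPL27A-201. Models annotated as protein coding with at least 500 bases after the stop codon were also searched. The first 500 of these bases held an AATAAA on the transcript strand in 651 of 2120 long known models (30.7%). Among shorter known models they did so in 1526 of 5292 (28.8%). A match of letters is not a used site, and where these reads ended is not in the table, so the length of the RNA behind them was not tested.

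The ratio between the libraries was ordered by junction span. In the classes below, the lower bound is included and the upper bound is not. Models with spans under 250 bases had 5335 and 4717 reads, a CPM ratio of replicate 2 to replicate 1 of 0.796 (0.765 to 0.828), and those of 250 to 500 had 12882 and 11179, a ratio of 0.781 (0.762 to 0.801). The ratio was 0.545 (0.524 to 0.566) at 500 to 1000 bases and 0.546 (0.527 to 0.566) at 1000 to 2000, where EEF1A1-202 held many of the reads and the ratio without it was 0.418. At longer spans replicate 2 had few reads. Spans of 2000 to 3000 bases had 1751 and 483 reads (ratio 0.248, 0.224 to 0.275), spans of 3000 to 4000 had 1016 and 207 (0.183, 0.157 to 0.213), and the 136 models of 4000 or more had 341 and 48 (0.127, 0.092 to 0.172). The share of models with a read in both libraries was 61.8% at spans under 250 bases, 62.5% at 250 to 500 and 65.1% at 500 to 1000, and 16.2% at 4000 or more. A model with a single read cannot be in both libraries, and such models were 26.9% of the first class and 55.1% of the last.

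By length within these classes the ratios differed less. At spans under 500 bases, models of 4000 to 6000 bases had a ratio of 0.798 and those of 6000 or more had 0.749, and at 500 to 1000 bases these were 0.538 and 0.560. At 1000 to 2000 bases they were 0.589 and 0.383, with EEF1A1-202 among the former, and at 2000 or more 0.224 and 0.186. Across the 653 long known models with at least 10 reads, the log2 ratio had a Spearman's rho of -0.62 with the span, -0.59 with the exon number, 0.06 with the model length and 0.26 with the last exon. These are descriptions across models of 1 pair of libraries. Shorter known models showed the order too, with ratios of 0.978, 0.840, 0.693, 0.506, 0.317 and 0.212 from spans under 250 to spans of 3000 to 4000 bases.

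**Figure D3:**
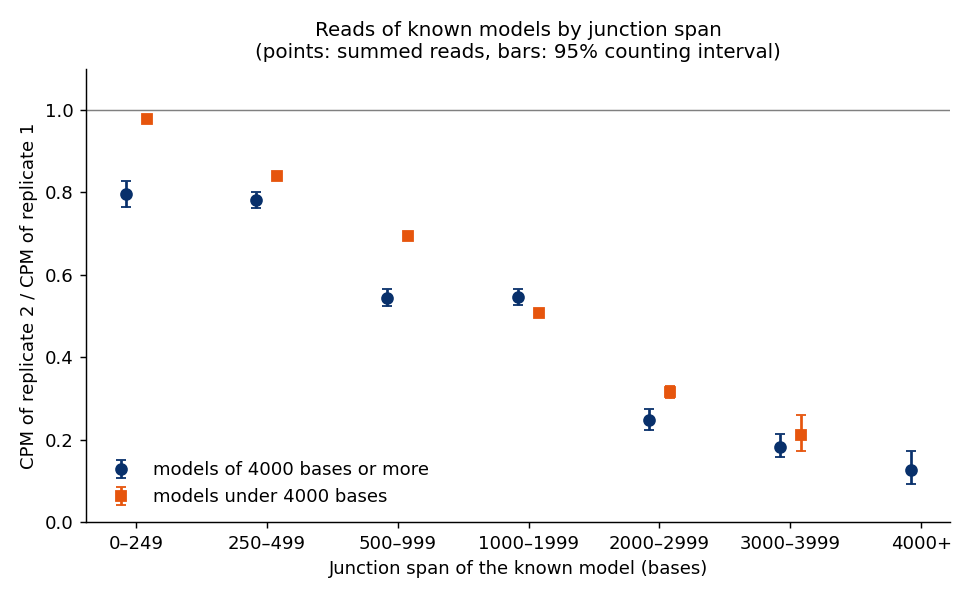
Ratio of CPM in replicate 2 to replicate 1, pooled over the reads of each junction-span class, for long known models and for shorter known models, with 95% intervals from counting error. The ratio falls from 0.796 at spans under 250 bases to 0.127 at 4000 or more in the long models.

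Each known model with a summed count of at least 10 was tested against the library totals with a two-sided exact binomial test, with Benjamini-Hochberg adjustment over all 7156 such models and a threshold of 0.05. Of the known models tested, 27.9% differed between the libraries, 23.3% lower and 4.64% higher in replicate 2. Of the long known models 653 could be tested and 1777 could not; 245 (37.5%) were lower in replicate 2 and 3 (0.459%) were higher. The median log2 ratio was -1.08, against -0.47 over all known models tested, and it was below 0 in 579 of 653. By span the share that was lower was 42 of 211 under 500 bases, 55 of 156 at 500 to 1000, 79 of 182 at 1000 to 2000 and 69 of 104 at 2000 or more. Because replicate 2 had a smaller share of its reads in known models, scaling to the totals of reads in known models moved every log2 ratio by 0.29 and left 152 of the 653 called, 144 lower and 8 higher, against 19.3% of all known models tested under that scaling.

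**Figure D4:**
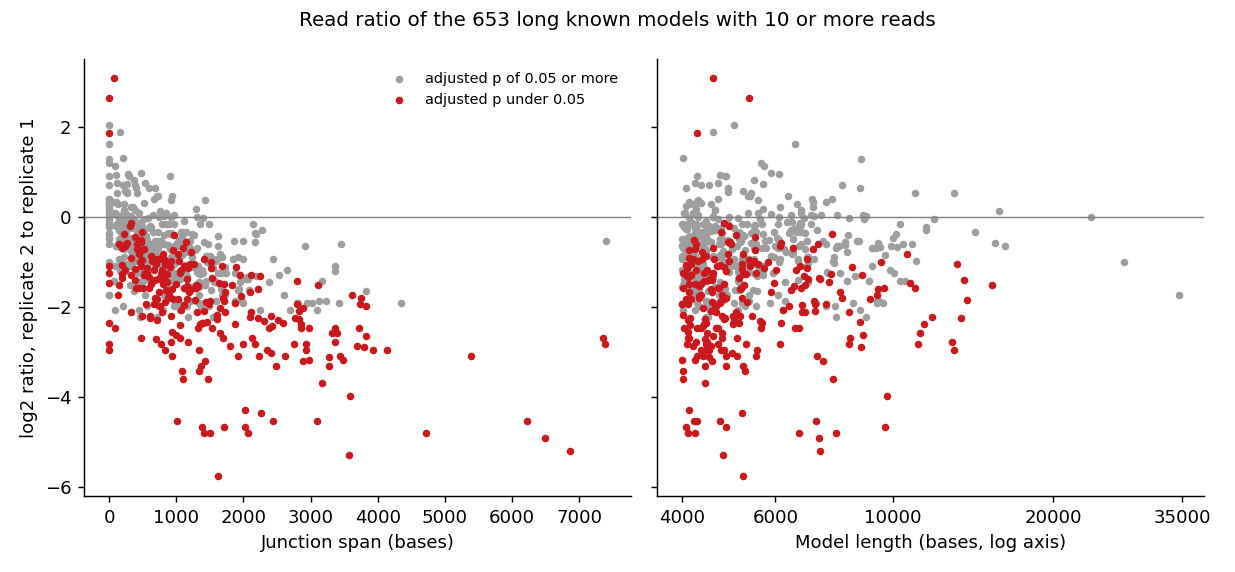
Log2 ratio of replicate 2 to replicate 1 (0.5 reads added to each count) of the 653 tested long known models against junction span (left) and model length on a log axis (right), both in bases, with models past the adjusted threshold in red. Points fall with the span (Spearman's rho -0.62) and show no such slope with length (0.06).

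The 3 lowest log2 ratios among the called models were those of models with 0 reads in replicate 2. FNBP1-203, of an F-BAR protein that bends membranes, had 24 reads in replicate 1 and 0 in replicate 2, at least 8.89-fold lower when replicate 2 is set at the 3 reads that a count of 0 allows. COPA-201, of a coatomer subunit, had 17 and 0 reads (at least 6.29-fold lower), and PRPF8-201 had 16 and 0 (at least 5.92-fold lower). The genes themselves were read in both libraries: FNBP1 had 437 and 440 reads, COPA 157 and 115 and PRPF8 217 and 247. Adjusted p-values of the exact binomial test were 3.82e-07, 4.26e-05 and 8.40e-05. These models passed the read minimum of the test through replicate 1 alone, and were then picked for their low ratios. Neither their direction nor these p-values are independent of that choice. The fold values take the counts of replicate 1 as exact and allow for counting error in replicate 2 only.

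The models with most reads at spans of 3500 bases or more were picked after their values were seen. VARS-215, with 30 exons, led with 61 reads in replicate 1 and 19 in replicate 2, which was 24.9% (Wilson interval 19.9 to 30.7%) and 7.51% (4.86 to 11.4%) of the reads of VARS. SF3B3-201, of a splicing factor complex that recognises branch points, had 35 and 2 reads, and NCAPD2-201, of condensin, 17 and 2. HDLBP, which encodes the RNA-binding protein vigilin, had 3 such models of 28 exons with the same span of 3822 bases, and their reads were 26 and 7 for HDLBP-203, 25 and 4 for HDLBP-201 and 15 and 5 for HDLBP-204. SYMPK-201, of a scaffold for 3′ end processing, had 16 and 2 reads, and TYK2-205, of a Janus kinase, 16 and 5. In all of these replicate 1 had more reads. They were ranked by the reads of both libraries together, most of which came from replicate 1. Only VARS-215 had at least 10 reads in replicate 2. The direction and the p-values below are therefore not independent of how the models were picked. The exact binomial test called VARS-215, SF3B3-201, NCAPD2-201, HDLBP-203, HDLBP-201, SYMPK-201 and TYK2-205 lower in replicate 2, with adjusted p-values from 2.51e-08 to 0.0343, and not HDLBP-204 (0.0728); TYK2-205 was not called under DESeq2 size factors (0.0509) or under known totals (0.112).

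Chains with the most exons were seen in a few reads each. PI4KA-201, of a lipid kinase, has 55 exons and a span of 6101 bases and had 7 reads in replicate 1 and 1 in replicate 2. DOCK2-201, of an exchange factor that activates Rac in leukocytes, has 52 exons and had 5 and 2 reads. The filamin A models FLNA-203, with 47 exons, and FLNA-201, with 46, had 9 and 1 and 14 and 2 reads among 386 and 455 reads of the gene. NUP188-201, of the nuclear pore, has 44 exons and had 4 and 2 reads, and VPS8-207, of an endosomal tethering complex, has 47 and had 1 and 1. FLNA-201 was called lower in replicate 2 (log2 ratio -2.69, exact binomial test, adjusted p = 0.00913), FLNA-203 was also called lower (-2.81, adjusted p = 0.0341, and 0.0916 against known totals), and PI4KA-201, DOCK2-201, NUP188-201 and VPS8-207 had too few reads for the test. FASN-201, with 43 exons and a span of 7405 bases, was the model of longest span with reads in both libraries, at 8 and 6 reads (log2 ratio -0.54, adjusted p = 0.746). Chosen after their values were seen, the extremes in either library had 1 read each: the longest span of all, 9505 bases, was that of WDFY4-201 with 1 and 0 reads, and the most exons, 67, were those of HTT-201, of huntingtin, also with 1 and 0.

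The 8 longest models with a read in both libraries had spans from 224 to 3363 bases. SMAD2-201, with a span of 1333, had 10 reads in replicate 1 and 3 in replicate 2, and GNAI3-201, of an inhibitory G protein subunit, is 27174 bases long with a span of 969 and had 22 and 12. C12orf45-204 (chr12:104986310-105017624, plus strand) is 23529 bases long, but 23147 of them are in the last of its 4 exons and its span is 224 bases. It had 62 and 69 reads, 45.6 and 45.7 CPM. None of these 3 was called: SMAD2-201 and GNAI3-201 did not pass the exact binomial test (adjusted p = 0.127 and 0.142), and neither did C12orf45-204 (adjusted p = 1). ARIH1-201, of a ubiquitin ligase, is 21681 bases long with a span of 1214 and had 5 and 3 reads; DNAJC10-201, of a chaperone of the endoplasmic reticulum, 20129 bases with a span of 2573 and 2 and 1 reads; and RPAP2-203, of a phosphatase of RNA polymerase II, 16993 bases with a span of 1765 and 2 and 1 reads. EPN1-202, of an endocytic adaptor, with a span of 1623, had 17 and 12 reads, and CIITA-201, of the transactivator of MHC class II genes, with a span of 3363, had 5 and 1.

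To see how much of each gene's output carried the complete long chain, the reads of long known models were set against all reads of their genes, whatever the category. Long known models held 36278 of 183919 gene reads in replicate 1, or 19.7% (Wilson interval 19.5 to 19.9%), and 25693 of 206316 in replicate 2, or 12.5% (12.3 to 12.6%), and the mean was 16.1% ± 5.14 (SD, n = 2). Other known models of the same genes held 22.1% and 18.9%. ISM suffix models, which lack 5′ junctions, held 17.6% and 21.5%. Genomic models, which lie in a gene and fall in none of the other categories named here, held 19.9% and 24.9%. ISM models that are neither suffix nor prefix held 6.96% and 9.82%, those that are both 3.60% and 5.92%, and ISM prefix models 1.88% and 1.53%. Models with new combinations of annotated splice sites (NIC) held 3.42% and 1.99%, and those with new splice sites (NNC) 4.79% and 2.93%. Suffix ISM and genomic reads thus had larger shares in replicate 2, and known, NIC and NNC reads had larger shares in replicate 1.

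The share was lower for long models than for known models of at least 1000 and under 2000 bases, which held 29.7% ± 6.04 (SD, n = 2) of the reads of their genes. The difference was -14.3 percentage points in replicate 1 and -13.0 in replicate 2 (mean -13.6 ± 0.903), so it was larger than the spread of the difference between the libraries. With 2 libraries no test was run. The share sums all models of a class in a gene, and the classes differed in models per gene. The class of 1000 to 2000 bases had 5652 models in 3697 genes, and the long models were 2430 in 2175 genes. How much of the difference came from this was not tested. The class of 1000 to 2000 bases had the highest mean share by length. The mean was 25.5% under 1000 bases, 23.1% at 2000 to 3000 and 18.3% at 3000 to 4000, so the gap to the adjacent class was much smaller. Within the long models the share was ordered by span from 250 bases on: 33.3% and 25.7% at spans of 250 to 500 bases, 23.8% and 13.3% at 500 to 1000, 14.7% and 7.73% at 1000 to 2000, 10.2% and 2.57% at 2000 to 3000 and 4.49% and 0.569% at 4000 or more. Spans under 250 bases were outside this order, with 16.0% and 12.6%, and the top of the order rested on a few abundant models: all spans under 500 bases together held 27.1% and 21.1%, and 15.8% and 11.4% without the 10 most read models. By length it was 17.4% ± 4.88 at 4000 to 5000 bases, 10.5% at 5000 to 6000, 14.2% at 6000 to 8000 and 13.9% at 8000 or more, with no steady fall.

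Gene by gene the share was low. Over the 1416 genes with at least 20 reads in each library, its median was 9.85% in replicate 1 (quartiles 3.85 and 22.3%) and 3.08% in replicate 2 (0 and 9.52%). It was lower in replicate 2 in 1219 genes, higher in 194 and equal in 3. Long known models held at least 50% of the reads in both libraries in 33 genes (2.33%) and under 5% in both in 402 (28.4%). By the shortest span among a gene's long models, the medians were 19.6% and 10.4% under 500 bases (304 genes), 15.4% and 6.90% at 500 to 1000 (262 genes), 10.4% and 3.03% at 1000 to 2000 (417 genes) and 6.67% and 0.870% at 2000 or more (433 genes).

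**Figure D5:**
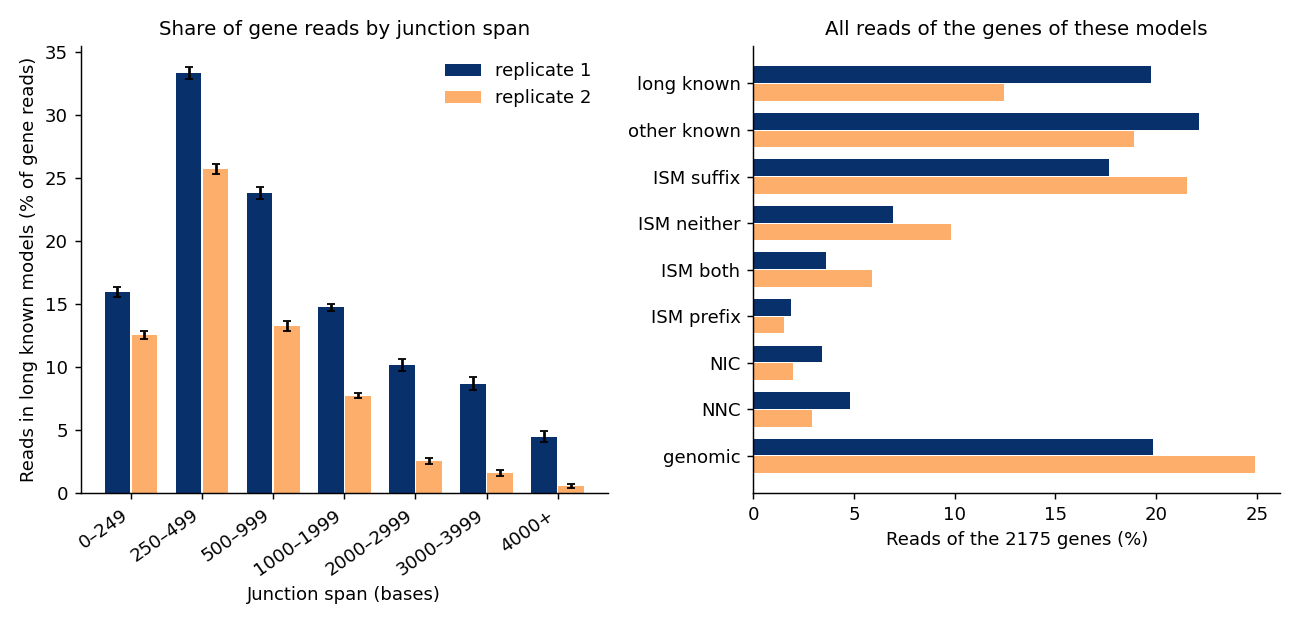
Left, percent of gene reads held by long known models in each class of junction span in replicates 1 and 2, with 95% Wilson intervals from counting error. Right, percent of all reads of the 2175 genes in each category of model, where long known models held 19.7% and 12.5% and genomic models 19.9% and 24.9%.

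The genes with the highest shares had compact coding chains and long last exons. ACOT13-201, of an acyl-CoA thioesterase, held 85.0% and 76.5% of its gene's reads, and C12orf45-204 held 83.8% (Wilson interval 73.8 to 90.5%) and 83.1% (73.7 to 89.7%). RPS27L-201, of a ribosomal protein paralog, held 83.8% and 79.2%, DNAJC15-201, of a mitochondrial co-chaperone, 80.7% and 80.1%, and HEBP2-204, of a haem-binding protein, 84.1% and 71.4%. Their spans ran from 185 bases in ACOT13-201 to 317 in HEBP2-204, and none was called in the count or the share test. At the low end, TPT1-214 had 2 reads in each library of 5308 and 5932 reads of TPT1, RPL28-202 had 1 and 5 of 4395 and 5215, and HNRNPC-203 had 2 and 1 of 733 and 755.

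Each model's reads and the other reads of its gene were compared between the libraries with a two-sided Fisher's exact test, adjusted over the 19603 known models of 2 or more exons in genes with at least 10 reads. Of those, 8.11% differed in share, 7.34% lower and 0.765% higher in replicate 2. Of 2308 long known models tested, 207 (8.97%) were lower and 2 (0.0867%) were higher, and 122 were not tested. The share of lower calls is close to the background. The smallest p-values were those of abundant models. TPT1-212 held 72.5% (71.3 to 73.7%) and 56.8% (55.5 to 58.0%) of the reads of TPT1 (Fisher's exact test, adjusted p = 2.02e-65). ATP5F1A-202 held 63.7% (60.5 to 66.8%) and 29.4% (26.7 to 32.1%), with an adjusted p of 3.82e-51 by the exact test, and PGK1-201 held 55.9% (52.0 to 59.7%) and 24.9% (22.4 to 27.6%), with 9.09e-35. Further shares that were lower in replicate 2 were 45.7% and 28.7% in HNRNPA1-203, 81.0% and 56.0% in RTRAF-201 and 67.8% and 55.0% in ATP5MC3-201, while 77.5% and 68.2% in SNRPD1-201 did not pass (exact test, adjusted p = 0.111).

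Calls on read counts of the most abundant models depended on the scaling. TPT1-212 had a log2 ratio of -0.34 and RPL37-201 one of -0.38 against all reads, both called lower, and of -0.06 and -0.09 against reads in known models, neither called. RPL28-201 turned from -0.14, called lower (exact binomial test, adjusted p = 0.0058), to 0.15, called higher (0.0027). The scaling alone thus reversed its call. RPL27A-201 turned from -0.21, called lower (0.0025), to 0.08, not called (0.388). No direction is given for these 2 models. HNRNPA1-203 (-0.73), RTRAF-201 (-0.71) and ATP5F1A-202 (-0.997) were called lower under both scalings, and PGK1-201 (-0.57) and ATP5MC3-201 (-0.45) only against all reads. EEF1A1-202 (-0.09) and RPL13-201 (-0.19) were not called (exact binomial test, adjusted p = 0.139 and 0.111).

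The 3 long known models called higher in replicate 2 have some of the shortest chains. PSMD6-204, of a proteasome regulatory subunit, had 2 reads in replicate 1 and 23 in replicate 2, while its gene had 138 and 143; its share was 1.45% (0.398 to 5.13%) and 16.1% (11 to 23%). SUB1-202, of a transcription coactivator, had 8 and 34 reads of 715 and 1007. MIR193BHG-211, of a microRNA host gene, had 1 and 10 of 9 and 24. In PSMD6-204 and SUB1-202 the first exon takes 4294 and 4147 bases and the spans are 78 and 0 bases, and in MIR193BHG-211 the last exon takes 5055 bases with a single junction. The log2 ratios were 3.08, 1.87 and 2.66 (exact binomial test, adjusted p = 0.000566, 0.00144 and 0.0471), and the shares of PSMD6-204 and SUB1-202 also passed Fisher's exact test (adjusted p = 0.000301 and 0.0332).

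Retained-intron models as a class were at 317 and 438 reads, a CPM ratio of 1.24 (1.07 to 1.44), where protein-coding models had 35840 and 25135. PSMD6-204 (2 and 23 reads) and SUB1-202 (8 and 34), named above because they were called higher, are in this class. Part of its excess in replicate 2 came from them, and the ratio without them was not computed. The ratio of 1.24 therefore does not show that the other models of this class were higher in replicate 2. Of the 124 retained-intron models, 81 had a first exon over 50% of their length, with 236 and 343 reads, and 32 had such a last exon, with 66 and 83. Some of the most read of them, chosen after their values were seen, differed little between the libraries: ASAH1-226, of acid ceramidase, had 20 and 25 reads, GRHPR-210, of glyoxylate reductase, 15 and 13, SMARCE1-230, of a chromatin remodeller, 15 and 12, and DNAJB11-204, of a chaperone of the endoplasmic reticulum, 13 and 12. None of these 4 was called in either test. Whether such reads came from spliced RNA that keeps an intron or from unspliced RNA was not tested.

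Outside protein-coding genes, the models named here were chosen after their values were seen. OIP5-AS1-201, a long noncoding RNA of 8829 bases with a last exon of 8494, had 14 and 15 reads and held 25% and 28.3% of its gene's reads. ZNF271P-201, of a transcribed pseudogene, had 8 and 7 reads, OTUD6B-AS1-201 13 and 6, and EBLN3P-202 3 and 4. The 5 models of TUG1 together had 3 and 3 of 28 and 37 reads of that gene.

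Genes known for long coding sequences were grouped into 8 lists by pathway, and the long known models of each list were counted. Over the tested models of a list, the median log2 ratio was -2.60 for B cell and immune signalling, -2.75 for the actin cytoskeleton, -4.49 for vesicle coats (-3.17 with a count of 0 set at 3 reads), -2.83 for splicing, export and translation (-2.20 likewise) and -1.67 for metabolism, against -0.47 over all known models tested, -1.08 over the 653 long known models and -2.25 over the 104 of them with a span of at least 2000 bases. These list medians rest on 2 to 6 models each, and the median span of all long known models in these 5 lists ran from 2103 bases (B cell) to 5096 (actin). Most of the tested models named below reached the minimum of 10 reads through replicate 1 alone, such as SEC24C-202 with 17 and 1 reads. The list medians thus describe models that the filter kept mainly for their reads in replicate 1. The B cell and immune signalling list had a long known model in 18 of 35 genes, with 26 models and 110 and 34 reads, which was 4.94% and 1.31% of their genes' reads. Of these 26 models, 4 could be tested and 3 were lower in replicate 2, with none higher. Of all known models tested, 23.3% were lower and 4.64% higher, and of the long ones 37.5% and 0.459%. At spans of at least 2000 bases 66.3% of the tested long known models were lower, so 3 of 4 does not set this list apart. PLCG2-207, of the phospholipase downstream of the B cell receptor, has 33 exons and had 23 and 3 reads, 13.0% (8.82 to 18.7%) and 1.44% (0.492 to 4.15%) of the gene's reads. SYK-204, of the kinase that the receptor recruits, had 16 and 3 reads, and STAT6-201, of a transcription factor of interleukin signalling, 13 and 5. PLCG2-207 and SYK-204 were lower in replicate 2 (exact binomial test, adjusted p = 0.000188 and 0.0102) and STAT6-201 was not called (adjusted p = 0.14). All models of each gene together had 177 and 208 reads in PLCG2, 86 and 87 in SYK and 139 and 137 in STAT6. The count calls are on the long models and not on these gene totals. For a gene total, RNA from a whole culture does not separate the number of expressing cells from the RNA per cell.

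The actin cytoskeleton and adhesion list had a long known model in 12 of 28 genes, with 14 models and 81 and 16 reads (3.69% and 0.669% of gene reads), of which 4 were tested, 3 lower and none higher. Among all tested long known models 37.5% were lower, and among those with a span of at least 2000 bases 66.3%. ACTN4-201, of alpha-actinin, had 25 and 3 reads (exact binomial test, adjusted p = 6.05e-05), and MYO1G-206, of a haematopoietic class I myosin, whose first exon takes 2992 of its 5393 bases, had 7 and 6 (adjusted p = 0.891). Vesicle coats and membrane traffic had 10 models in 7 of 19 genes, with 59 and 2 reads (7.94% and 0.310% of gene reads), and both models tested were lower, beside the same 66.3%. SEC24C-202, of the COPII coat, had 17 and 1 reads. In this list 2 models had reads in both libraries, SEC24C-202 and COPA-202, the latter with 2 and 1.

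Chromatin and transcription genes had 14 models in 9 of 26 genes with 23 and 1 reads, 2.88% and 0.105% of gene reads, and none could be tested. CHD4-231, of a nucleosome remodeller with 40 exons, had 1 and 1 reads, SMARCA2-204, of the SWI/SNF remodeller, 5 and 0, and CHD8-201, of another remodeller, 3 and 0. Splicing, export and translation genes had 16 models in 10 of 20 genes with 100 and 11 reads, 7.07% and 0.753% of gene reads. Of these models 6 were tested, 4 were lower and none was higher, where 66.3% of tested long known models with a span of at least 2000 bases were lower. DHX9-201, of an RNA helicase, had 20 and 2 reads, SF3B1-201, of the branch-point complex, 12 and 2, and UPF1-201, of the nonsense-mediated decay helicase, 11 and 3. DHX9-201 and SF3B1-201 were lower (exact binomial test, adjusted p = 0.000402 and 0.0236, the latter 0.0663 against known totals) and UPF1-201 was not called (adjusted p = 0.0876).

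Replication, repair and mitosis genes had 10 models in 6 of 21 genes with 28 and 8 reads, 9.30% and 2.66% of gene reads. MSH6-201, of mismatch repair, had 15 and 4 of these reads and was the only model of the list tested, lower in replicate 2 (exact binomial test, adjusted p = 0.0367, and 0.0896 against known totals). SMC4-203, of condensin, had 1 and 1 and MCM3AP-210 1 and 2. The ubiquitin system had 2 models in 2 of 15 genes, HUWE1-204 with 1 and 3 reads and UBE3C-205 with 1 and 0, and neither was tested. Metabolism and ion transport genes had 11 models in 11 of 19 genes with 81 and 25 reads, 5.85% and 1.37% of gene reads. Of these 11 models 6 were tested, 3 were lower and none was higher. Of all tested long known models 37.5% were lower, and of those with a span of at least 2000 bases 66.3%. SLC7A5-201, of an amino acid transporter, had 20 and 7 reads (exact binomial test, adjusted p = 0.0266, and 0.118 against known totals), and TFRC-201, of the transferrin receptor, 10 and 4 (adjusted p = 0.224).

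At the length limit, NAT10-201 (4002 bases, span 2984) had 20 reads in replicate 1 and 2 in replicate 2, SFI1-203 (4002 bases) 1 and 0, and PLEKHM2-201 (4004 bases) 15 and 4. Just outside it, MGLL-208 (3999 bases, span 216) had 1 and 1, SKAP2-201 (3998 bases) 1 and 1, and USP1-201 (3996 bases) 2 and 1.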

How the data were processed

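The deposited table of the authors holds unnormalised read counts for each transcript model in each replicate, made with TALON as the table's name shows; minimap2 and hg38 are given in the submitters' processing notes, and versions and read filters are not given in the sources used here. Exon number and model length are properties that the authors deposited beside the counts. Exons, types, positions and sequences came from GENCODE release 29, with no genome used. The long known models and the gene lists were chosen with earlier results of these data known.

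With 1 group, edgeR's quasi-likelihood test between groups could not be fitted; exact binomial and Fisher's exact tests compared the reads of the 2 libraries (scipy 1.17.1, Python 3.11.15) and were tested on simulated data. Log2 ratios had 0.5 reads added. The ratio intervals, like the Wilson ones, are at 95%, and the floor is 3 reads. Scaling alternatives were edgeR 4.0.16 TMM, DESeq2 1.42.0 size factors and totals of reads in known models; other alternatives changed the length, exon and read minimums and the denominator.

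Named models were the 12 with the highest minimum count; the 8 longest and the 6 with the most exons with reads in both libraries; the 5 highest and 3 lowest mean gene shares in genes of at least 50 reads per library; the 3 largest log2 ratios in each direction among those called and the 3 smallest p-values in each direction of the share test (2 were higher); from each list the 3 models with the highest minimum count over both libraries; and the 3 models on each side of the length limit. Others are marked as chosen after their values were seen. Of those, 1 model is not reported here.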

Additional observations from a re-analysis of the deposited data

How the results depend on the processing

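With 1 library left out, values are those of the other: the share of all reads 1.70 to 2.67%, the gene share 12.5 to 19.7% and the long-minus-short difference -14.3 to -13.0 points. No paired analysis was possible because both libraries form 1 group. Minimum lengths of 3000 and 5000 bases gave shares of all reads of 4.10% and 0.851%, differences of -11.7 and -17.0 points and, at 3000, 54.6% of models in both libraries; at 5000, 117 of 338 models were called by count and 102 of 1235 by share (main 248 of 653 and 209 of 2308, background 27.9% and 8.11%). Keeping only models with 5 reads gave 92.4% in both libraries and a difference of -15.3 points. Without genomic models the difference was -12.2, and as a median over genes -14.9. The gene share was 22.6% over known and ISM reads and 6.47% as a median over genes. With pseudocounts of 0.1 and 10 CPM, r was 0.585 and 0.922 (main 0.822). Chosen after seeing the data, a span of 2000 bases or more gave 0.139% of all reads, 5.30% of gene reads, 34.3% in both libraries, and calls for 69 of 104 by count and 62 of 718 by share, the latter (8.64%) near its background; without the 10 most read models the share of all reads was 1.24%. Totals of known reads gave 152 calls of 653. They turned the log2 ratio of RPL27A-201 to 0.077, not called, and of RPL28-201 to 0.15, called higher. Of 35 named calls they ended 10 others. TMM ended none and DESeq2 size factors ended 1. The cause was not tested. Read depth limited the tests: 1777 of the long known models had too few reads for the count test.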
